A study of Cavia porcellus with 6 samples.

Results

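The 10 genes described here belong to the CCN family and to YAP signalling, and were read in the posterior sclera of guinea pigs with and without form deprivation. They are Ccn1, Ccn2, Ccn3, Ccn4 and Ccn5, the coactivator genes Yap1 and Wwtr1, and the YAP and TAZ target genes Ankrd1, Amotl2 and Lats2. They were chosen by name, as genes read as a response to scleral stretch, and all 10 were among the 32193 genes of the deposited count table. All 10 were also among the 16348 genes that passed a filter on low counts and were tested. The study compared 3 libraries of right eyes of form-deprived animals (FDM) with 3 libraries of right eyes of the control group (NC), each taken from the posterior pole of the sclera on day 28 of induction. Form deprivation, the covering of an eye so that it receives no sharp image, is a standard way to induce axial myopia in this species. The sources used here give no strain, age or sex of the animals, and no library is labelled as treated with quercetin, which the series title names. Nothing in the labels says how the libraries of a group differ beyond their number, so p-values measure the spread between these libraries.

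CCN proteins are secreted matricellular proteins that bind integrins and other receptors and modulate cell adhesion, matrix production and growth factor signalling. YAP and TAZ, the products of Yap1 and Wwtr1, are transcriptional coactivators that enter the nucleus when cells are spread or under tension and that act through the TEAD factors. The Hippo kinases phosphorylate both and keep them out of the nucleus, so that YAP and TAZ activity is set largely after transcription, while target genes such as Ccn1, Ccn2, Ankrd1, Amotl2 and Lats2 are read as its output. In the sclera, whose fibroblasts lie in a collagen coat under eye pressure, these genes are of interest because the coat thins and stretches as a myopic eye elongates.

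Libraries held 10377397 to 17534982 counts. Fewest genes were detected in FDM 1 (12783) and NC 1 (14416), while the remaining 4 libraries detected 17689 to 20591. Among genes averaging more than 300 counts, 223 were at 0 in FDM 1 and 96 in NC 1. The 11 fibroblast markers in the table were detected in all 6 libraries. CPM here are counts scaled to library size, and the mean level of these markers ran from 8.46 to 10.5 log2 CPM in FDM, against 7.72 to 10 in NC. Skeletal muscle and Schwann cell markers were also present and varied strongly within each group. In bulk tissue, fewer cells of a type and less RNA per cell cannot be told apart.

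Comparing FDM with NC asks whether these genes differ in the sclera after form deprivation. No member passed the test. The quasi-likelihood test of edgeR, adjusted by Benjamini-Hochberg over all genes, called 0 of the 10 and 0 (0%) of all 16348 genes at an adjusted p below 0.05, the adjusted p being 0.999999 for each member. DESeq2 called 24 (0.108%) of the genes it adjusted, and 0 of the 10. Below, the test is that of edgeR unless DESeq2 is named. At an unadjusted p below 0.05 edgeR gave 2 of the 10, Ccn1 and Ccn5, both higher in FDM, where 156 genes (0.954% of all) lay below that level, 0.661% being higher in FDM. Neither kept this p under every alternative. That of Ccn1 was 0.025, against 0.16 without FDM 3 and 0.052 to 0.077 without any 1 NC library, and that of Ccn5 was 0.038, against 0.15 without FDM 3, 0.12 without NC 2, 0.078 without FDM 2, 0.079 without NC 1, 0.079 with total-count scaling, 0.076 without a filter and 0.064 in limma-voom, as edgeR or limma fits across all genes gave them. For 1 of the 10, Ccn5, the 3 FDM libraries lay above the 3 NC libraries, and the groups overlapped for the other 9, while 5.55% of all genes did not overlap in one direction or the other. With 3 libraries a group, 0.1 is the smallest two-sided p of an exact permutation test. The fitted log2 fold change of FDM over NC was above 0 for 8 of the 10, against 51.2% of all genes. Without FDM 3 it was above 0 for 4 of the 10, against 42.1% of all genes, whose median was then -0.18.

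**Figure D1:**
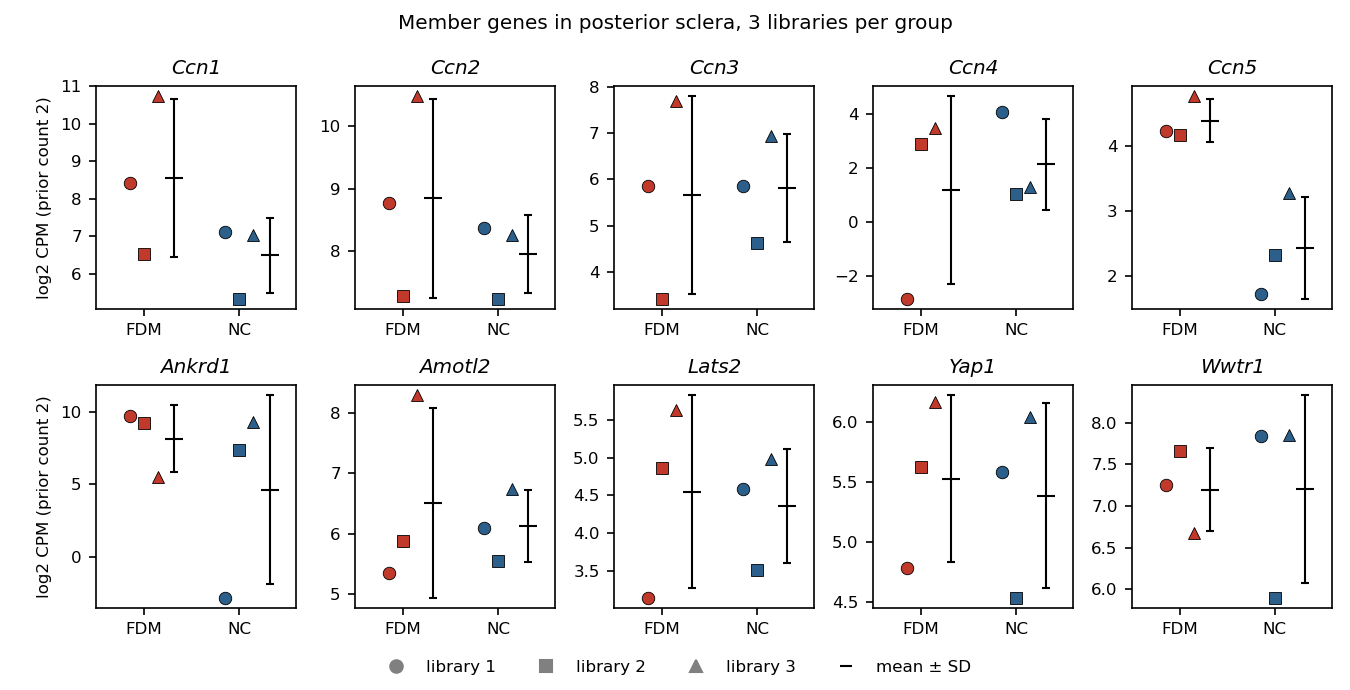
Expression of the 10 genes as log2 CPM with a prior count of 2, by library (circle, square and triangle for libraries 1, 2 and 3), with FDM in red left of NC in blue and the mean and SD of 3 libraries in black, each panel on its own vertical scale. Ccn5 is the gene whose groups separate, and FDM 3 is the highest library for Ccn1, Ccn2, Ccn3, Ccn5, Amotl2, Lats2 and Yap1.

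Ccn1, which encodes an integrin-binding protein formerly called CYR61 and is itself an immediate early gene, had the largest fold change of the members. Its level was 343, 91.5 and 1706 CPM in FDM 1, 2 and 3, against 139, 40.3 and 130 CPM in NC 1, 2 and 3. FDM 3 and FDM 1 lay above every NC library, and FDM 2 lay below NC 1 and NC 3. The means were 713 ± 868 CPM in FDM, against 103 ± 54.6 CPM in NC (SD over 3 libraries each), and the log2 fold change was 2.79 ± 1.03 (SE), with a 95% interval of 0.45 to 5.13 before any adjustment for the number of genes. The highest FDM library held 18.6 times the level of the lowest. Without FDM 3 the log2 fold change was 1.04, and the fits without another library gave 2.38 to 3.31.

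Ccn2, which encodes connective tissue growth factor, a promoter of matrix production in fibroblasts, had 434, 156 and 1427 CPM in FDM 1, 2 and 3, against 330, 151 and 308 CPM in NC 1, 2 and 3. Its libraries ranked as those of Ccn1 did, from FDM 3 and FDM 1 through NC 1, NC 3 and FDM 2 to NC 2. The log2 fold change was 1.35 ± 0.78 (SE), with a 95% interval of -0.41 to 3.11, and was 0.12 without FDM 3. The fibroblast marker list also had its highest mean level in FDM 3 and its lowest in NC 2. Measured against that mean, an alternative chosen after seeing the data, Ccn2 differed by 0.41 log2 units between FDM and NC, and its libraries lay at -0.33, -1.17 and -0.024 in FDM 1, 2 and 3, against -1.63, -0.47 and -0.66 in NC 1, 2 and 3. By the same measure Ccn1 differed by 1.59 log2 units, the FDM libraries lying at -0.67, -1.94 and 0.23 and the NC libraries at -2.88, -2.38 and -1.90. The groups overlapped in both cases (exact permutation test, two-sided p = 0.5 for Ccn2 and 0.2 for Ccn1).

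Ccn3, also known as NOV, is known to counter matrix effects of CCN2 in cultured rodent kidney cells. It had 58.3, 10.7 and 206 CPM in FDM 1, 2 and 3, against 58.3, 24.7 and 123 CPM in NC 1, 2 and 3. FDM held both the highest and the lowest library. The log2 fold change was 0.41 ± 0.97 (SE), and it was -1.04 without FDM 3 and -0.021 without NC 2.

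Ccn4, a WNT-inducible family member, had 0, 101 and 178 counts in FDM 1, 2 and 3, against 173, 32 and 45 counts in NC 1, 2 and 3. The count of 0 in FDM 1 allows a level of up to 0.296 CPM, taken as 3 counts and covering counting error only, while NC 1 had the highest level, 16.9 CPM. These are the libraries with the fewest detected genes. The log2 fold change was -0.20 ± 1.77 (SE), and it was 0.39 without FDM 1 and 1.52 without NC 1. Ccn6, the remaining family member, which is not among the 10, likewise had 0 counts in FDM 1 and its highest level, 12.5 CPM, in NC 1, with 3.25 and 0.94 CPM in FDM 2 and 3, against 1.27 and 0.78 CPM in NC 2 and 3. Its log2 fold change was -1.79 ± 2.09 (SE), and 0.44 without NC 1.

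Ccn5, formerly WISP2, the family member that lacks the C-terminal cystine knot domain of the others, had 18.7, 18.0 and 27.3 CPM in FDM 1, 2 and 3, against 3.13, 4.84 and 9.53 CPM in NC 1, 2 and 3. Every FDM library lay above every NC library, as for 2.73% of all genes, and the FDM libraries differed by at most 1.52 times. The means were 21.3 ± 5.18 CPM in FDM, against 5.83 ± 3.32 CPM in NC (SD over 3 libraries each). The log2 fold change was 1.87 ± 0.77 (SE), with a 95% interval of 0.12 to 3.61, and it ran from 1.56 to 2.32 over the fits that left out 1 library. The counts behind these levels were 190, 249 and 435 in FDM, against 32, 80 and 183 in NC. Relative to the fibroblast marker mean the difference was 1.49 log2 units and the groups overlapped, with -4.86, -4.28 and -5.72 in FDM 1, 2 and 3, against -8.29, -5.40 and -5.65 in NC 1, 2 and 3 (exact permutation test, two-sided p = 0.3). Its log2 fold change was 1.61 with total-count scaling, under which the median of all genes was -0.23 instead of 0.02.

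**Figure D2:**
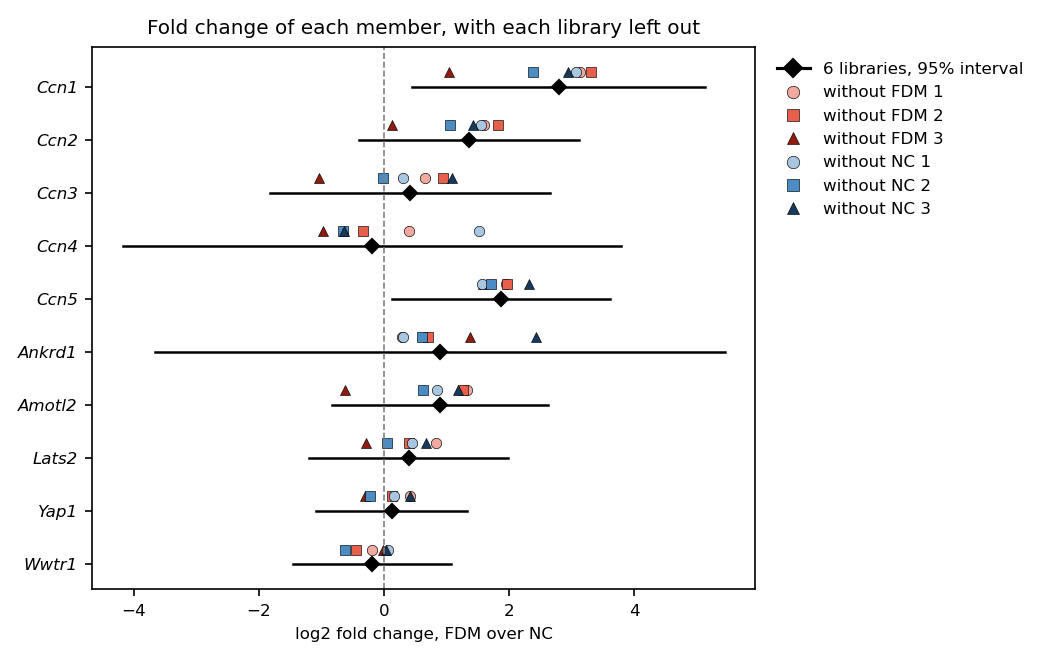
Log2 fold change of FDM over NC for each member (black diamond) with its unadjusted 95% interval (black line) from the fit to 6 libraries, and the values with 1 library left out above each line (red tones for FDM libraries, blue tones for NC libraries). The intervals of Ccn1 and Ccn5 do not include 0, and the value without FDM 3 (dark red triangle) is the lowest for Ccn1, Ccn2, Ccn3, Ccn4, Amotl2, Lats2 and Yap1.

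Ratios between members within a library do not depend on how libraries are scaled. From the pairs examined 6 such ratios could be formed, which were picked with some of the levels already seen, and a further pair, Ankrd1 over Ccn2, was left out because NC 1 had no Ankrd1 count. Ccn1 had 0.791, 0.585 and 1.195 counts per count of Ccn2 in FDM 1, 2 and 3, against 0.420, 0.266 and 0.424 in NC 1, 2 and 3. Each FDM library was higher than each NC library, FDM 1 and FDM 2 included, and the difference was 1.18 log2 units. Of the 16347 tested genes besides Ccn2, 25 (0.153%) had a count over that of Ccn2 that was higher in every FDM library than in every NC library. These 25 held 6 of the 17 immediate early genes tested, namely Atf3, Dusp1, Egr1, Fos, Fosb and Jun, and 3 of the 9 heat shock genes, Hspa6, Hsph1 and Zfand2a. From the 21 YAP/TAZ target genes besides Ccn2 they held Ccn1. As lists, immediate early and heat shock genes were known from earlier work on these data to have their highest mean level in FDM 3. Their presence among the 25 is therefore not an independent result, and what sets the level of Ccn1 was not tested.

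Ccn3 had 0.134, 0.0683 and 0.144 counts per count of Ccn2 in FDM 1, 2 and 3, against 0.177, 0.163 and 0.399 in NC 1, 2 and 3. Each FDM library was lower than each NC library, as for 3.66% of all genes, and the difference was -1.04 log2 units. Relative to Ccn2, Ccn1 was thus higher and Ccn3 lower in FDM. The exact permutation p was 0.1 for each of these ratios, the smallest that the design allows, and 0.3 after Benjamini-Hochberg adjustment over the 6 ratios. Ccn5 over Ccn2 lay at 0.0431, 0.115 and 0.0191 in FDM, against 0.00948, 0.0320 and 0.0310 in NC, with overlapping groups.

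**Figure D3:**
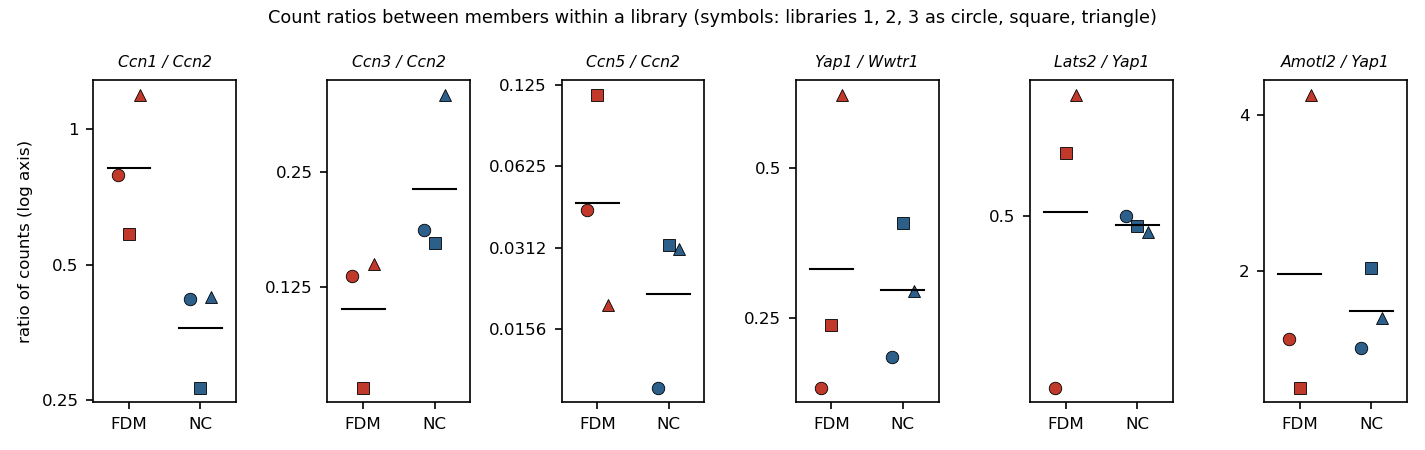
Ratio of counts between pairs of members within each library on log axes, FDM (red) left of NC (blue), with the geometric mean of 3 libraries as a black line. Ccn1 over Ccn2 is higher and Ccn3 over Ccn2 lower in every FDM library than in every NC library, while the other 4 ratios overlap.

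Genes with a pattern over the 6 libraries most like that of a member were found by the root mean square difference of centred log2 CPM. Nearest to Ccn1 were Alox5ap, an activator of leukotriene synthesis, at 0.35 log2 units, Dusp1, a MAP kinase phosphatase, at 0.48, Zfp36, an mRNA-destabilising zinc finger protein, at 0.50, Errfi1, a feedback inhibitor of the EGF receptor, at 0.51, and Gadd45b, a stress-induced gene, at 0.57. Alox5ap lay below 10 CPM in each library. Nearest to Ccn2 were Thbs4, an extracellular matrix glycoprotein gene, at 0.22, Itgbl1 at 0.29, Eeig2 at 0.32, Pcdh18, a protocadherin gene, at 0.33 and Ppp1r15a, the stress-induced eIF2-alpha phosphatase subunit, at 0.34. Thbs4 had 323, 123 and 870 CPM in FDM 1, 2 and 3, against 286, 86.4 and 255 CPM in NC 1, 2 and 3, and so ranked the libraries as Ccn2 did. Ccn2 lay 0.70 log2 units from Ccn1 at rank 12 by this measure, while Ccn1 was at rank 230 among the genes nearest to Ccn2. Ccn3, Amotl2 and Ccn5 lay 1.17, 1.17 and 1.26 units from Ccn1, at ranks 213, 216 and 354.

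Ankrd1, which encodes an ankyrin repeat protein of nucleus and sarcomere and is a widely used YAP target, ranked the libraries much as skeletal muscle markers did. Its level was 826, 605 and 44.8 CPM in FDM 1, 2 and 3, against 0, 166 and 627 CPM in NC 1, 2 and 3. The highest libraries were FDM 1, NC 3 and FDM 2, and FDM 3, the library of highest Ccn1 and Ccn2, was the lowest but for NC 1. The count of 0 in NC 1 allows up to 0.294 CPM. The summed level of the 14 skeletal muscle markers in the table was 72136, 72954 and 13806 CPM in FDM 1, 2 and 3, against 114, 19786 and 32477 CPM in NC 1, 2 and 3, and in NC 1 the markers Myh2, Actn2, Mb and Neb had no counts. NC 1 and FDM 3 were thus the libraries lowest in both. As a share of that sum, Ankrd1 was 1.15, 0.829 and 0.325% in FDM 1, 2 and 3, against 0, 0.839 and 1.93% in NC 1, 2 and 3. The log2 fold change was 0.90 ± 1.93 (SE), with a 95% interval of -3.66 to 5.45. It was 2.42 without NC 3, 0.29 without FDM 1, 0.30 without NC 1 and -0.37 without both libraries numbered 1. All 14 muscle markers had a log2 fold change above 0, with a median of 1.56 and 0 past the test. That median was 0.96 without NC 1, 0.63 without both libraries numbered 1 and 3.76 in limma-voom, where Ankrd1 had 2.71. The part of these markers in the level of Ankrd1 was not tested.

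**Figure D4:**
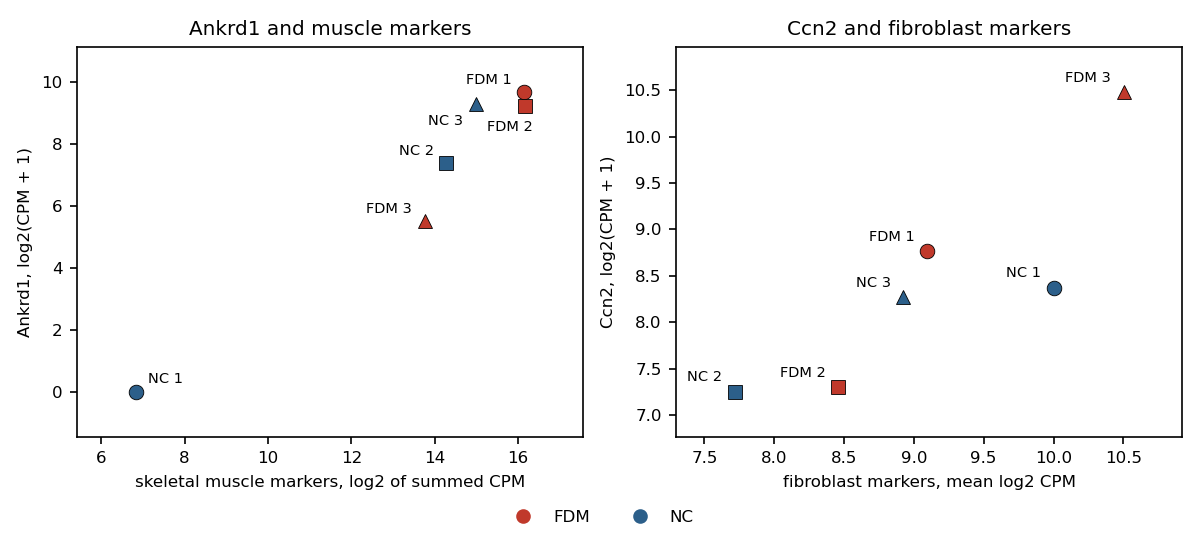
Left, Ankrd1 as log2(CPM + 1) against the log2 of the summed CPM of 14 skeletal muscle markers, and right, Ccn2 as log2(CPM + 1) against the mean log2 CPM of 11 fibroblast markers, with 1 point for each of 6 libraries (FDM red, NC blue). NC 1 is lowest on both axes on the left, and FDM 3 is highest and NC 2 lowest on both axes on the right.

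Amotl2 and Lats2 encode feedback inhibitors of YAP that YAP itself induces. Amotl2, an angiomotin family protein that holds YAP at junctions and in the cytoplasm, had 40.6, 58.6 and 314 CPM in FDM 1, 2 and 3, against 68.1, 46.8 and 107 CPM in NC 1, 2 and 3. FDM 3 was the highest library, and FDM 1 was the lowest. The log2 fold change was 0.90 ± 0.76 (SE), with a 95% interval of -0.83 to 2.63, and it was -0.63 without FDM 3. Lats2, a kinase that phosphorylates YAP and TAZ, had 8.67, 29.1 and 49.7 CPM in FDM 1, 2 and 3, against 24.0, 11.2 and 31.4 CPM in NC 1, 2 and 3. Here too FDM 3 was highest and FDM 1 lowest, and the log2 fold change was 0.39 ± 0.71 (SE), with a 95% interval of -1.20 to 1.98, or -0.29 without FDM 3 and 0.041 without NC 2. Amotl2 over Yap1 was 4.37 in FDM 3 and lay between 1.19 and 2.03 in the other 5 libraries. Lats2 over Yap1 was 0.315, 0.592 and 0.693 in FDM 1, 2 and 3, against 0.500, 0.487 and 0.479 in NC 1, 2 and 3, so that it varied more within FDM.

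The group means of the coactivator genes differed by less than the SD within either group, at 49.5 ± 22.1 CPM in FDM, against 45.5 ± 21.3 CPM in NC, for Yap1, and 152 ± 50.3 CPM in FDM, against 174 ± 98.9 CPM in NC, for Wwtr1. Yap1 had 27.5, 49.2 and 71.7 CPM in FDM 1, 2 and 3, against 47.9, 23.1 and 65.6 CPM in NC 1, 2 and 3, giving a log2 fold change of 0.12 ± 0.54 (SE). Its 95% interval ran from -1.09 to 1.33, and its value was -0.30 without FDM 3, -0.23 without NC 2 and -0.076 with total-count scaling. Wwtr1, the gene of TAZ, had 152, 203 and 102 CPM in FDM 1, 2 and 3, against 230, 59.5 and 232 CPM in NC 1, 2 and 3. Its log2 fold change was -0.19 ± 0.56 (SE), with a 95% interval of -1.45 to 1.07, and it was 0.057 without NC 1, 0.036 without NC 3 and -0.63 without NC 2. These intervals span a doubling or a halving of either gene, so a change of that size was not detectable here. Yap1 over Wwtr1 was 0.701 in FDM 3 and between 0.181 and 0.388 in the other 5 libraries, FDM 3 being the library of highest Yap1 and second lowest Wwtr1.

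TEAD factors are the DNA-binding partners of YAP and TAZ, and VGLL proteins are cofactors that bind TEAD in their place. With Yap1 and Wwtr1, 8 of these genes were tested, 6 with a log2 fold change above 0, 0 past the test, and a median of 0.32, which ran from 0.07 to 0.65 with 1 library left out. Of the 8 genes 3 did not overlap between the groups, where 5.55% of all genes did not overlap in one direction or the other. Tead2 had 45.1, 59.4 and 75.8 CPM in FDM 1, 2 and 3, against 90.4, 113 and 80.1 CPM in NC 1, 2 and 3, giving a log2 fold change of -0.65 ± 0.39 (SE), and its highest FDM library was below its lowest NC library. Vgll4, which competes with YAP for TEAD factors, had 117, 92.3 and 102 CPM in FDM, against 74.8, 57.4 and 83.4 CPM in NC, giving a log2 fold change of 0.53 ± 0.37 (SE). Vgll3, a TEAD cofactor, lay at 6.57 to 12.6 CPM in FDM, against 0 to 4.01 CPM in NC, with 0 in NC 1. Its log2 fold change was 2.30 ± 1.75 (SE), and ran from 1.72 to 3.61 with 1 library left out. Tead1 had a log2 fold change of 0.057 ± 0.56 and Tead4 of 1.08 ± 0.61 (SE). Tead4 was highest in FDM 1 at 99.2 CPM and lowest in FDM 3 at 20.6 CPM. Of all genes, 2.81% lay lower in each FDM library than in each NC library, and 2.73% lay higher.

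Hippo kinases, adaptors and inhibitors, 24 genes with Amotl2 and Lats2 among them, had a median log2 fold change of 0.25 with 15 above 0, 0 past the test and 0 without overlap. The smallest p belonged to Frmd6, a FERM-domain activator of the kinases, with 22.5, 31.0 and 68.5 CPM in FDM, against 15.9, 5.93 and 27.2 CPM in NC, giving a log2 fold change of 1.32 ± 0.69 (SE), or 0.67 without FDM 3. Stk3, the kinase MST2, had 0.91 ± 0.60, and Taok1, which activates it, 1.28 ± 0.998, or -0.31 without FDM 3. Ptpn14, a phosphatase that binds YAP, had 0.44 ± 0.52. The median of the list was -0.28 without FDM 3, where that of all genes was -0.18, and 0.05 without NC 2.

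The YAP/TAZ target signature of 22 genes, which includes Ccn1, Ccn2, Ankrd1, Amotl2 and Lats2, had a median log2 fold change of 0.36, with 15 above 0 and 0 past the test. Its 17 other genes had a median of 0.02, equal to that of all genes at 0.02, with 10 above 0, 0 at an unadjusted p below 0.05 and 0 without overlap. Among them Dock5, an exchange factor for Rac, had the smallest p, with 14.4, 13.1 and 22.1 CPM in FDM, against 47.2, 14.9 and 28.4 CPM in NC, giving a log2 fold change of -0.87 ± 0.60 (SE). Ccdc80, a matrix protein gene, had 0.83 ± 0.60, Axl, a receptor tyrosine kinase gene, 0.37 ± 0.60, and Crim1, a transmembrane regulator of BMP signalling, 0.024 ± 0.56. These 3 were chosen after their values were seen. Without FDM 3 the median of the 22 was -0.29, where that of all genes was -0.18. The median of the 22 ran from -0.01 to 0.53 with any other single library left out.

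**Figure D5:**
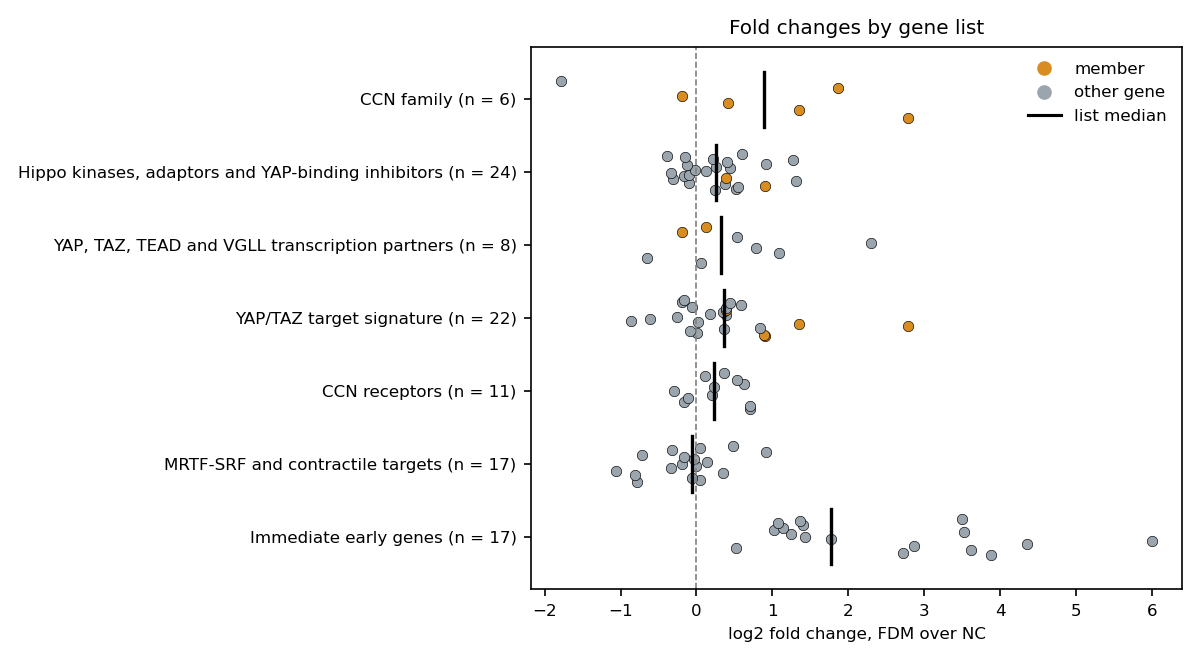
Log2 fold change of FDM over NC for each tested gene of 7 lists, members in orange and other genes in grey, with the list median as a black bar. The 17 grey points of the target signature centre on a median of 0.02, and the median of all its 22 genes is 0.36. The 17 immediate early genes all lie above 0 with a median of 1.77. That list was chosen with earlier results of these data known, so its position is not an independent result. What sets the levels of the members was not tested.

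Receptors of CCN proteins, 11 genes tested, had a median log2 fold change of 0.23 with 8 above 0 and 0 past the test. The median was 0.02 without FDM 3 and 0.51 without NC 3. The integrin genes Itga5 and Itga6 had 0.70 ± 0.59 and 0.70 ± 0.61 (SE). Itga5 was 0.27 without FDM 1 and 0.32 without NC 2, and Itga6 was 0.37 without NC 1 or NC 2 and 1.53 without NC 3. Lrp1, an endocytic receptor for CCN2, had 0.62 ± 0.57, or 0.019 without FDM 3. Itgav and Itgb1, subunits of main CCN1 and CCN2 receptors, had -0.11 ± 0.40 and 0.20 ± 0.51, and were chosen after their values were seen.

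MRTF and SRF form the other transcription pathway that answers to actin tension, and in human and mouse cells Ccn1 is a known target of both. The 17 genes of this list had a median log2 fold change of -0.06, or 0.19 without NC 1, with 6 above 0 and 0 past the test. Srf had -0.16 ± 0.41, Mrtfa -0.011 ± 0.42 and Mrtfb -0.18 ± 0.53 (SE). The contractile gene Cnn1 had -0.81 ± 0.83, or 0.11 without NC 1, and the LIM domain gene Fhl2 -1.06 ± 0.59, the lowest of the list. Tpm1 went the other way with the highest value of the list, 0.92 ± 0.78, or 0.57 without FDM 2. Acta2, the smooth muscle actin of myofibroblasts, chosen after its values were seen, had 1136, 835 and 410 CPM in FDM 1, 2 and 3, against 2226, 296 and 1559 CPM in NC 1, 2 and 3, so that FDM 3, highest in Ccn1 and Ccn2, was the second lowest for Acta2. Smooth muscle and pericyte markers had a median of -0.46, or 0.00019 without NC 1 and -0.78 without NC 2, with 3 of 8 above 0. Their summed levels were 1743 to 5964 CPM in FDM, against 1465 to 4055 CPM in NC. Of the 8 genes, Des had the highest level in each FDM library. Des had 3636, 3087 and 673 CPM in FDM 1, 2 and 3, against 326, 745 and 1368 CPM in NC 1, 2 and 3. It ranked the libraries much as the skeletal muscle sum did. The FDM sums thus rest most on Des and do not give the level of the list without it.

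Of the stretch-gated channel genes, none passed the test. Trpv4, a cation channel opened by stretch and osmotic swelling, had 53.2, 16.0 and 33.4 CPM in FDM 1, 2 and 3, against 7.73, 5.99 and 10.1 CPM in NC 1, 2 and 3. Every FDM library lay above every NC library, and the log2 fold change was 2.11 ± 0.65 (SE), with 1.64 to 2.45 when any single library was left out. Piezo1, another mechanosensitive channel gene, had 179, 150 and 228 CPM in FDM, against 94.4, 63.5 and 172 CPM in NC, giving a log2 fold change of 0.75 ± 0.47 with overlapping groups.

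Immediate early genes and heat shock genes are given beside Ccn1 because Ccn1 is itself an immediate early gene. Both lists were known from earlier work on these data to have their highest mean level in FDM 3. The counts below are therefore not independent results. All 17 immediate early genes had a log2 fold change above 0, with a median of 1.77, or 1.08 without FDM 3. Of the 17, 6 were higher in every FDM library than in every NC library, against 2.73% of all genes. At an unadjusted p below 0.05 lay 9, where 0.661% of all genes were higher in FDM, and 0 passed the edgeR test. DESeq2 called 3 of the 17 higher in FDM, Fos at an adjusted p of 0.00092, Fosb at 0.029 and Atf3 at 0.039. Of all genes it adjusted, DESeq2 called 0.108% in either direction. It gave no p for Nr4a1. The mean level of the 17 was 6.55, 4.996 and 7.45 log2 CPM in FDM 1, 2 and 3, against 3.90, 3.83 and 4.75 in NC 1, 2 and 3. Of the 17, Fosl1, Junb, Ier2 and Maff were highest in FDM 1 and Egr2 in NC 3. The 9 heat shock genes had a median of 3.35, or 1.15 without FDM 3, and 0 passed the edgeR test. At an unadjusted p below 0.05 in edgeR lay 6 of them, where 0.661% of all genes were higher in FDM. DESeq2 called 2 of these 9 higher in FDM, Hspa6 at an adjusted p of 1.73e-13 and Hsph1 at 0.021, against 0.108% of all genes. It gave no p for Dnajb1 and Bag3. The part of these genes' regulation in the level of Ccn1 was not tested.

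The other marker lists were read for the same libraries, none of their genes passing the test. Of these lists, pigment epithelium (Rgr) and macrophage markers (Cd68) each had 1 gene at an unadjusted p below 0.05. Fibroblast markers had a median log2 fold change of 0.49 with 9 of 11 above 0. Without FDM 3 their median was -0.46, where that of all genes was -0.18. Photoreceptor markers had the lowest median, -1.57 with 0 of 10 above 0, at summed levels of 183, 993 and 6436 CPM in FDM 1, 2 and 3, against 4808, 14895 and 322 CPM in NC 1, 2 and 3. The groups overlapped for each of these 10 genes, and Pde6a, Pde6b, Pde6g, Rom1 and Guca1a had no counts in FDM 1. Their median was -4.16 without FDM 3 and -0.26 without NC 2. Cartilage markers had a median of -0.54, or -1.49 without FDM 2, and Schwann cell and glia markers -0.25, or -1.38 without FDM 2 and 0.15 without NC 3. Pigment epithelium and melanocyte markers had 0.08, or -1.96 without FDM 3, endothelial markers 0.26, or -0.08 without NC 2 and 0.76 without NC 3, and macrophage markers 0.17, or -0.24 without NC 2 and 0.69 without NC 1. The part of these cells in the levels of the CCN and YAP genes was not tested.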

How the data were processed

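Gene expression was measured by RNA-seq in 6 libraries of guinea pig posterior sclera, 3 FDM and 3 NC, grouped and numbered by their titles. The authors deposited raw read counts per gene. The submitters' processing notes name Trimmomatic, STAR and HTSeq. The sources used here do not state versions, genome build, annotation or strand setting, so reads of overlapping genes cannot be told apart, and no coordinates or sequences are printed. Per the labels' protocols, libraries were made with a NEBNext Ultra kit after Trizol extraction.

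The comparison used edgeR 4.0.16 under R 4.3.3, with filterByExpr at its defaults, TMM scaling and the robust quasi-likelihood test, Benjamini-Hochberg adjusted over 16348 genes. CPM uses TMM library sizes. The SE is the absolute log2 fold change over the root of the F statistic, and the SD is over 3 libraries. Alternatives used DESeq2 1.42.0, limma 3.58.1, other scalings and filters, the replicate number as a block and libraries left out. Scripts were checked on simulated counts. Members and gene lists were chosen with earlier results of these data known. All members are named, with the 3 genes of smallest p of each list, genes without overlap and some always named. Not all of these are printed, and some listed genes and results are not reported here. Levels are not compared between genes, since transcript lengths were not used here. Figures used matplotlib 3.10.9.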

Additional observations from a re-analysis of the deposited data

How the results depend on the processing

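No member was called under any alternative, and only DESeq2 called any gene, 24 in all. Genes at an unadjusted p below 0.05 numbered 156, against 367 without a filter, 486 in DESeq2 and 84 to 536 with 1 library left out. Of the 156, 108 were higher and 48 lower in FDM, and with total-count scaling 50 and 130. Members above 0 numbered 8, against 51.2% of all genes, and 4 to 10 with 1 library left out, against 42.1 to 53.9% of all genes. With 1 library left out the log2 fold change of Amotl2 ran from -0.63 to 1.33, of Ccn3 from -1.04 to 1.09, of Ccn4 from -0.98 to 1.52, of Lats2 from -0.29 to 0.83, of Wwtr1 from -0.63 to 0.057 and of Yap1 from -0.30 to 0.42. Ccn3 was -0.14 in limma-voom and Yap1 -0.076 with total-count scaling. In limma-voom Ankrd1 was 2.71, against 0.90, Amotl2 0.40, against 0.90, and Ccn2 0.86, against 1.35. Ankrd1 was also 1.96, Amotl2 0.38 and Ccn2 0.86 with the block, and Ankrd1 3.06 relative to fibroblast markers. Without both libraries numbered 1, Ankrd1 was -0.37, Ccn4 2.03 and Wwtr1 0.0021. Relative to fibroblast markers, chosen after seeing the data, Amotl2 was -0.095, Ccn3 -0.63, Lats2 -0.28 and Yap1 -0.33. With the replicate number as a block, Ccn3 was -0.15 and Ccn4 0.48, and 0 genes were called. In the labels same-numbered libraries share only a number, although FDM 1 and NC 1 were also those with the fewest detected genes. Deviations of same-numbered libraries correlated across genes with r of 0.0951, 0.0335 and -0.152. Those of differently numbered libraries had r of -0.222 to 0.261. Ccn1, Ccn2 and Ccn5 kept a positive value under each of these alternatives. The cause of these shifts was not tested.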
